A study of Homo sapiens with 4 samples.

Results

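Heterotrimeric G proteins carry signals from cell-surface receptors into the cell, and RGS proteins (regulators of G-protein signalling) switch them off. The group described here holds 51 protein-coding genes of the 64252 rows of the count table. The rule takes genes by their symbols: 21 called RGS and a number, 13 G-alpha genes, 5 G-beta genes and 12 G-gamma genes, with the transducin alpha genes of the eye and taste cells left out. The RNA was sequenced in bulk from SK-N-BE(2) cells, which were grown from a human neuroblastoma and carry extra copies of MYCN. The shCDK5RAP3 group (2 libraries) carried a short hairpin RNA against CDK5RAP3, a partner of the UFM1 ligase at the endoplasmic reticulum, and the shControl group (2 libraries) carried a control hairpin. No source used here says whether the replicates came from separate cultures, or how many hairpins or clones were used, so p-values measure only the spread between these libraries.

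A receptor that binds its ligand loads GTP onto the alpha subunit, which then parts from the beta-gamma dimer, and both parts act on effectors. Gs alpha subunits raise cyclic AMP, Gi and Go subunits lower it or act through beta-gamma, and Gq subunits activate phospholipase C-beta. RGS proteins speed up GTP hydrolysis by the alpha subunit and so end the signal. Neuroblastoma cells are of sympathoadrenal origin, and in such cells Gi- and Go-coupled receptors for noradrenaline, opioids and acetylcholine restrain transmitter release.

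Total counts per library were 28653689 and 30138393 in the shCDK5RAP3 libraries and 28721740 and 28755837 in the shControl libraries. CDK5RAP3 itself had 1669 and 1689 counts in the shCDK5RAP3 libraries, against 2529 and 2866 in the shControl libraries, a fall to 62.1% (log2 fold change -0.69 ± 0.08 SE, edgeR adjusted p = 0.000163). Of the 15 noradrenergic neuroblastoma markers, all were detected, 11 fell and 1 rose (73.3% lower, against 21.8% of all tested genes). Their summed level was 5846 and 6045 CPM (counts scaled to library size) in the shCDK5RAP3 libraries and 9620 and 10186 CPM in the shControl libraries. MYCN alone held 2813 and 2881 CPM of the shCDK5RAP3 sums and 4674 and 4921 CPM of the shControl sums. The Schwann cell markers SOX10, FOXD3 and CDH19 and the T cell marker CD3E had no counts in these 4 libraries, but other markers of their lists did. Of 8 Schwann cell markers 3 were tested, PMP22 and S100B fell and 1 did not pass. PMP22 had 451 and 439 counts with shCDK5RAP3 and 866 and 862 with shControl. Of 12 endothelial, leukocyte and epithelial markers 8 were tested, CDH5, EPCAM and KRT19 fell and 5 did not pass. That is 66.7% and 37.5% lower, against 21.8% of all tested genes. As a sign of RNA quality, 8 mitochondrial transcripts summed to 48417 and 49389 CPM in the shCDK5RAP3 libraries and 54321 and 52727 CPM in the shControl libraries. Of the 8, 5 were lower, 2 higher and 1 did not pass. The sum hides opposite shifts, from 67.1% of control for MT-CO2 to 192% for MT-ND1. The part of these levels in the results was not tested. In bulk RNA, fewer cells of a type and less RNA per cell cannot be told apart.

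RGS4, RGS5, the alpha subunits GNA12 and GNAO1, GNB4 and the gamma subunits GNG2, GNG4, GNG7 and GNG10 were all lower in the shCDK5RAP3 libraries, while the Gs subunit GNAS and the 3 Gi subunits did not pass the test. Of the 51 genes, 40 had enough counts to be tested, and of these 19 fell, 1 rose and 20 did not pass an edgeR adjusted p of 0.05. Among all 18775 tested genes, 41.5% passed, 21.8% as lower and 19.7% as higher. The median log2 fold change of the 40 tested members was -0.31, and that of all tested genes was -0.0034. In 35 of the 40 every library of one group lay on one side of both libraries of the other, as in 71.4% of all tested genes. At least 2-fold falls were seen in 4 members (GNG7, RGS13, RGS4 and RGS9), against 7.29% of all tested genes, and at least 2-fold rises in none, against 3.22%. At an unadjusted p under 0.05 edgeR had 19 members lower and 5 higher, and DESeq2 had 19 lower and 2 higher. The share of all tested genes at an unadjusted p was not counted, so these numbers have no background. Calls depended on which group lost a library. With either shCDK5RAP3 library left out, fewer members and fewer of all tested genes passed as lower than with either shControl library left out.

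**Figure D1:**
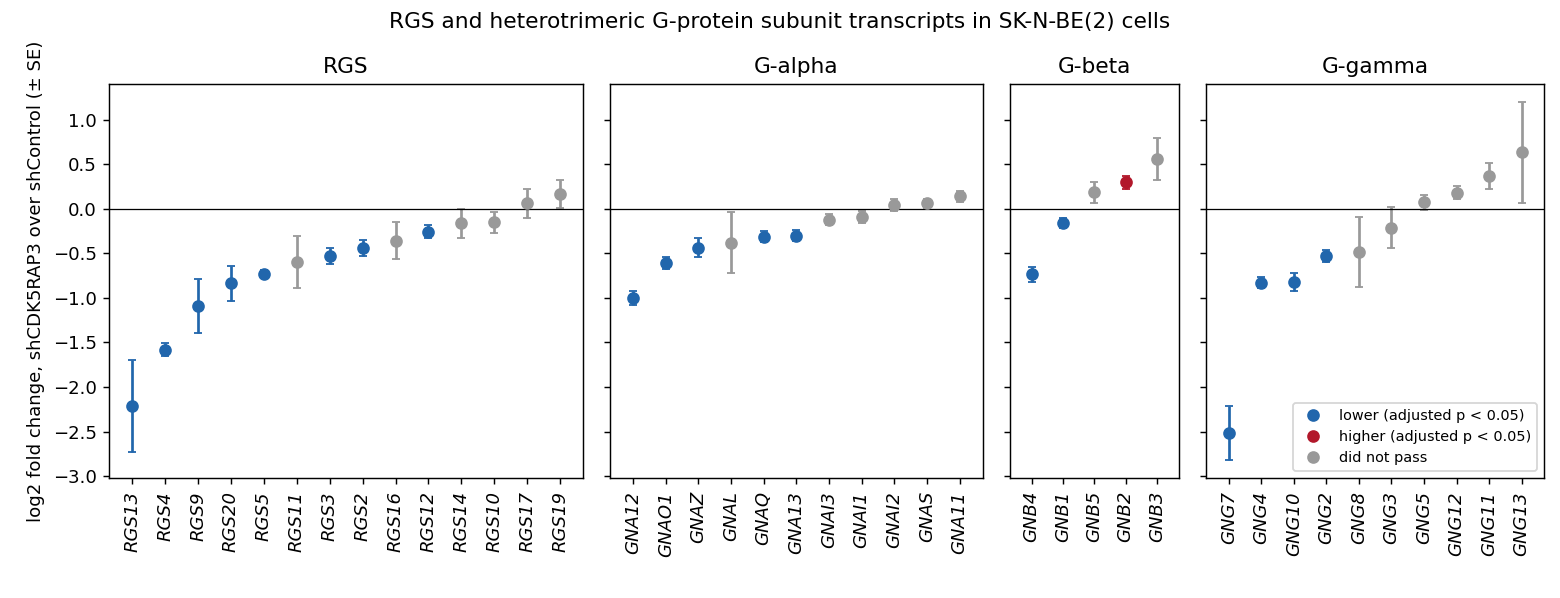
Log2 fold change (shCDK5RAP3 over shControl, y axis) of the 40 tested members by family, with bars of ± 1 SE and colours for the edgeR call. The 19 blue points lie below 0, from -0.16 for GNB1 to -2.52 for GNG7, and the only red point is GNB2 at 0.30.

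Promoter sequences of 4 members that fell are shown because 2 of them share a complete cyclic AMP response element (CRE) and the other 2 are neighbours. RefSeq (GRCh38.p14) lists windows of 300 bases, 250 before to 50 after a start, for 43 of the 51 members. The CRE, spelled TGACGTCA and identical on both strands, occurs in the windows of GNG7 and GNAO1 and in no other member window, that is 2 of 84 member windows (2.38%) against 1.85% of all 35116 windows. The CRE was singled out from the motifs searched after the matches were seen. Its half-site TGACG was in 25.0% of member windows, against 24.6% of all windows. Capitals mark the CRE. GNG7 and GNAO1 have 1 listed start each (chr19:2702645-2702944 on the minus strand and chr16:56191239-56191538 on the plus strand).
GNG7: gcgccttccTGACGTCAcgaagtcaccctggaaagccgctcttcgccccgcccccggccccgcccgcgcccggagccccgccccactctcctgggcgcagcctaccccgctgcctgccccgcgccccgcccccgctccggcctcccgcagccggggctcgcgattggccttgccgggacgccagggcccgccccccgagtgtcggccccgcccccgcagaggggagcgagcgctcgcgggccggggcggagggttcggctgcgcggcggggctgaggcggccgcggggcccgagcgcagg
GNAO1: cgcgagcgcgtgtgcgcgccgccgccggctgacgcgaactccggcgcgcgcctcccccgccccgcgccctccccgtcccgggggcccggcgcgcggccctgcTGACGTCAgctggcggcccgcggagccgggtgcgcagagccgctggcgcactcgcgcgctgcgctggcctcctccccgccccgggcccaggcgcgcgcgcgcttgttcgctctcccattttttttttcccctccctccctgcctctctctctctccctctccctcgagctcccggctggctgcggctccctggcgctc
For RGS4 the outermost of its 4 listed starts is shown (chr1:163068621-163068920, plus strand), and for RGS5 the one of its 2 starts that lies nearer to RGS4 (chr1:163202867-163203166, minus strand).
RGS4: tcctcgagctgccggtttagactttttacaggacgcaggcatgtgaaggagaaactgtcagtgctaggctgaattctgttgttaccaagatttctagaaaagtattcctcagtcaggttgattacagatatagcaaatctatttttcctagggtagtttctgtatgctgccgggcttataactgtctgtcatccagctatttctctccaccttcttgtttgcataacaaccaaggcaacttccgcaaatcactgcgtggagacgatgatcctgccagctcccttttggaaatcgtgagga
RGS5: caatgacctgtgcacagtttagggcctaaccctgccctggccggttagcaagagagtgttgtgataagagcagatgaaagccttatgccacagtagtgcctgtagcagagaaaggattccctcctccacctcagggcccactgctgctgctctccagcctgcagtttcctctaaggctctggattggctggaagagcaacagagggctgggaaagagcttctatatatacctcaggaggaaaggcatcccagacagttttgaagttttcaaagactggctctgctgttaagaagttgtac
The 4 windows differ in base composition, with 82.0% G and C in GNG7, 78.3% in GNAO1, 44.7% in RGS4 and 51.0% in RGS5, where the median of all windows is 58.7%. The GC box GGGCGG, searched on both strands, occurs 7 times in the GNG7 window and 2 times in that of GNAO1. Of all windows 45.0% hold it, and of member windows 47.6%. CCAAT, which 34.6% of all windows and 19.0% of member windows hold on either strand, occurs once each in the windows shown for GNG7 and RGS5.

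In the RGS family 14 of 21 genes were tested, 8 fell and 6 did not pass (57.1% lower, against 21.8% of all tested genes). RGS4 and RGS5 were the most abundant of the family per length. RGS5, which acts on Gi and Gq and is widely used as a pericyte marker, was the most abundant member of all 51 per length. It reached 3106 CPM per kilobase of its median coding transcript in shControl libraries, followed by GNAS at 938, and these were also the first and second when the whole exon length was used (425 and 139).

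RGS4 is a small RGS protein of the R4 subfamily that restrains Gi and Gq signalling in neurons. RGS4 (ENSG00000117152, GRCh38 chromosome 1, 163068775 to 163076802) had 3260 and 3762 counts in the shCDK5RAP3 libraries, against 10624 and 10295 in the shControl libraries. Both shCDK5RAP3 libraries lay far below both controls, at 121 ± 9.18 CPM against 361 ± 9.27 CPM (SD, n = 2 each), which is 33.5% of control (log2 fold change -1.58 ± 0.07 SE, edgeR adjusted p = 1.61e-06). Its neighbour RGS5 (ENSG00000143248, chromosome 1, 163111121 to 163321791) had 49626 and 51796 counts in the shCDK5RAP3 libraries and 85640 and 82566 in the shControl libraries. Again no library of one group reached the other, and RGS5 fell to 60.1% of control (log2 fold change -0.73 ± 0.05 SE, edgeR adjusted p = 8.67e-06). The 2 genes lie 34.3 kb apart, tail to tail on opposite strands, and within a library there were 0.0657 and 0.0726 RGS4 counts per RGS5 count with shCDK5RAP3 and 0.124 and 0.125 with shControl. RGS5 overlaps NUF2 on the other strand, which had 2844 and 3014 counts in the shCDK5RAP3 libraries and 2146 and 2314 in the shControl libraries. No source used here gives the strand setting, so that reads of the pair may be mixed. A second row named RGS5, of antisense type, overlaps it on the same strand. That row had 90 and 111 counts in the shCDK5RAP3 libraries and 84 and 70 in the shControl libraries.

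Other genes of the R4 subfamily, the compact RGS proteins, fell by varied amounts or did not pass. RGS3 had 818 and 804 counts with shCDK5RAP3 and 1180 and 1160 with shControl, with no overlap (log2 fold change -0.53 ± 0.09 SE, edgeR adjusted p = 0.00119). RGS2, which prefers Gq, had 662 and 681 counts with shCDK5RAP3 and 893 and 920 with shControl (-0.44 ± 0.09 SE, adjusted p = 0.00464), again with the groups apart. RGS13, best known from B cells and mast cells, was near the detection limit, with 4 and 9 counts in the shCDK5RAP3 libraries and 30 and 31 in the shControl libraries (-2.22 ± 0.51 SE, adjusted p = 0.00775). Its call was lost without shCDK5RAP3 replicate 1 (edgeR adjusted p = 0.0629) and without a filter on low counts (0.0515), and that of RGS2 without shCDK5RAP3 replicate 2 (0.0625). RGS13 stood at -2.87 on the log2 scale when shCDK5RAP3 replicate 2 was left out. Of the R4 subfamily only RGS16 was tested without passing, with 193 and 142 counts in the shCDK5RAP3 libraries and 205 and 224 in the shControl libraries (-0.36 ± 0.20 SE, adjusted p = 0.194). RGS1, RGS13, RGS2, RGS18 and RGS21 sit in a row on chromosome 1 between positions 192158457 and 192812283, and RGS1, RGS18 and RGS21 had no counts here.

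In the R7 subfamily, whose proteins pair with the beta subunit GNB5, RGS9 fell and RGS11 did not pass. RGS9, known from photoreceptors and striatal neurons, had 50 and 99 counts in the shCDK5RAP3 libraries and 142 and 174 in the shControl libraries (log2 fold change -1.09 ± 0.30 SE, edgeR adjusted p = 0.0169). The shCDK5RAP3 libraries were far apart, although both were below the controls, and without shCDK5RAP3 replicate 1 the log2 fold change was -0.69 (adjusted p = 0.102), without shCDK5RAP3 replicate 2 -1.64. RGS9 also did not pass when no filter on low counts was used (edgeR adjusted p = 0.162). RGS11 had 76 and 82 counts with shCDK5RAP3 and 85 and 153 with shControl (-0.59 ± 0.29 SE, adjusted p = 0.135), and it passed only without shControl replicate 1 (adjusted p = 0.00956). RGS11 overlaps ARHGDIG on the other strand, which had 370 and 496 counts with shCDK5RAP3 and 430 and 505 with shControl, so reads may be mixed. GNB5 did not pass at 0.18 ± 0.12 SE (adjusted p = 0.262).

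Among the RZ subfamily, which includes regulators of Gz, RGS20 fell (116 and 95 counts with shCDK5RAP3, 190 and 187 with shControl, log2 fold change -0.84 ± 0.20 SE, edgeR adjusted p = 0.00852). RGS17 (0.06) and RGS19 (0.17) did not pass, and the groups overlapped for both. In the R12 subfamily the multidomain scaffold RGS12 was lower at 1550 and 1610 counts with shCDK5RAP3, against 1960 and 1812 with shControl (-0.26 ± 0.07 SE, adjusted p = 0.0207). RGS10 (-0.15) and RGS14 (-0.16) did not pass. The call of RGS20 was lost without shCDK5RAP3 replicate 2 (edgeR adjusted p = 0.0855), and that of RGS12 without shCDK5RAP3 replicate 1 (0.145), shCDK5RAP3 replicate 2 (0.138) or shControl replicate 1 (0.095). Both were also lost without a filter on low counts (0.0547 for RGS20 and 0.0757 for RGS12). Summed over all 21 RGS genes, the level was 2018 and 2050 CPM in the shCDK5RAP3 libraries and 3538 and 3406 CPM in the shControl libraries. Without RGS4 and RGS5 the sum was 166 and 172 CPM with shCDK5RAP3 and 210 and 211 CPM with shControl.

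**Figure D2:**
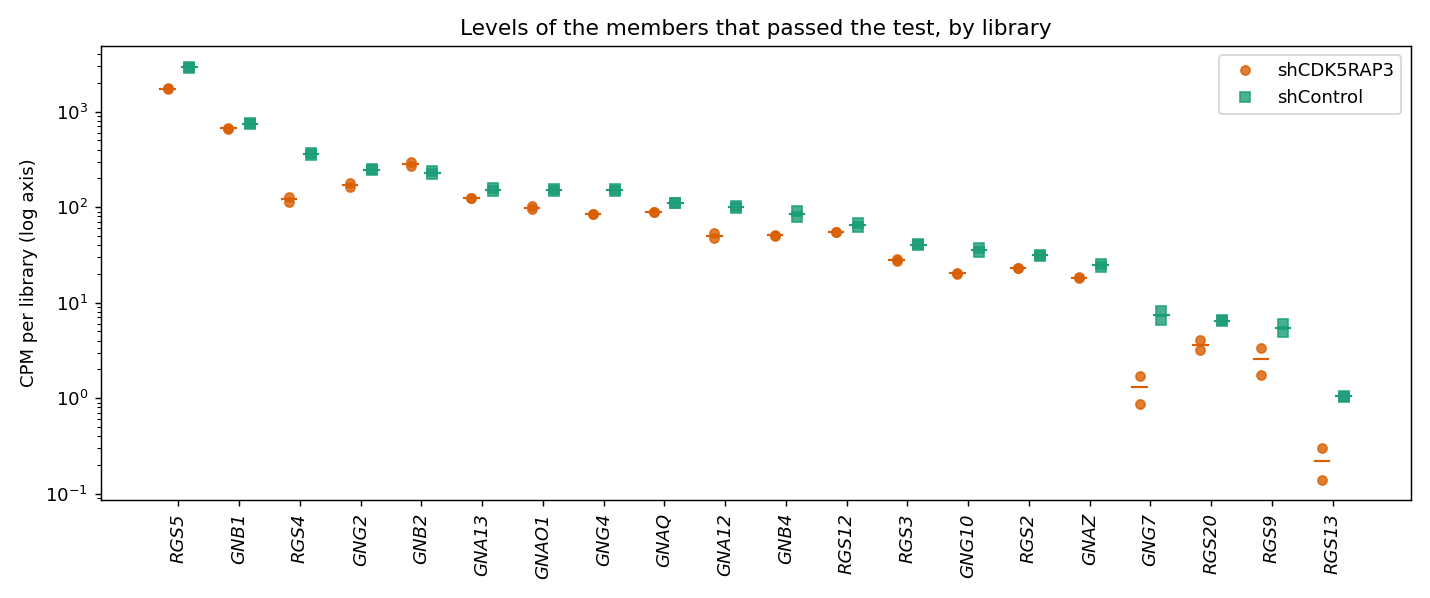
CPM in each library (log axis) of the 20 members that passed the test, ordered by their shControl level, with circles for shCDK5RAP3 libraries, squares for shControl libraries and short lines for group means. The circles lie below the squares for 19 members and above them for GNB2.

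RGS5 is a marker of pericytes, the cells that wrap small vessels, and the levels of such markers were therefore set beside it. Of 12 fibroblast and pericyte markers, 7 fell, 2 rose and 3 did not pass (58.3% lower, against 21.8% of all tested genes). Their summed level was 418 and 390 CPM in the shCDK5RAP3 libraries and 750 and 716 CPM in the shControl libraries. None of the 12 was at 0, and 4 of the fallen were PDGFRB (log2 fold change -2.32), the potassium channel regulator ABCC9 (-2.43), NOTCH3 (-0.94) and DCN (-1.73), whereas ACTA2 (2.06) and TAGLN (2.13) rose. These 6 were picked from the list after their values were seen. The 3 that did not pass were MCAM (-0.02), COL3A1 (-0.22) and COL1A2 (-1.61, at most 19 counts in a library). COL1A1 (-0.28), LUM (-1.21) and PDGFRA (-1.14) were the other fallen markers. The part of these transcripts in the fall of RGS5 was not tested.

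Of 13 alpha subunit genes 11 were tested, 5 fell and 6 did not pass (45.5% lower, against 21.8% of all tested genes). Both genes of the G12 and G13 class fell. GNA12 (ENSG00000146535, chromosome 7, 2728112 to 2844324) had 1513 and 1411 counts in the shCDK5RAP3 libraries and 2971 and 2866 in the shControl libraries, 50.3 ± 3.75 CPM against 101 ± 2.91 CPM (SD, n = 2 each), with no overlap (log2 fold change -0.9996 ± 0.08 SE, edgeR adjusted p = 1.96e-05). GNA13 moved less, with 3562 and 3646 counts in the shCDK5RAP3 libraries and 4558 and 4311 in the shControl libraries (-0.30 ± 0.06 SE, adjusted p = 0.00481), and its call was lost without shCDK5RAP3 replicate 1 (0.0669) or 2 (0.0864). Within a library there were 0.425 and 0.387 GNA12 counts per GNA13 count with shCDK5RAP3 and 0.652 and 0.665 with shControl.

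In the Gi and Go class, GNAO1 and GNAZ fell and the 3 GNAI genes did not pass. GNAO1, which encodes the abundant Go subunit of neurons, had 2930 and 2817 counts in the shCDK5RAP3 libraries against 4478 and 4273 in the shControl libraries (log2 fold change -0.61 ± 0.07 SE, edgeR adjusted p = 0.000158). GNAZ, the pertussis toxin-insensitive member, had 528 and 538 counts with shCDK5RAP3 and 743 and 695 with shControl (-0.44 ± 0.10 SE, adjusted p = 0.00816). Neither gene's groups overlapped, and the call of GNAZ was lost without shCDK5RAP3 replicate 1 (edgeR adjusted p = 0.0639) or 2 (0.0833). GNAI1 (-0.09 ± 0.07 SE), GNAI2 (0.04 ± 0.07 SE) and GNAI3 (-0.12 ± 0.06 SE) did not pass, with adjusted p-values of 0.323, 0.641 and 0.143. GNAI3 overlaps AMPD2 on the same strand, which had 1714 and 1869 counts with shCDK5RAP3 and 3349 and 3209 with shControl. Per GNAI2 count there were 1.40 and 1.26 GNAO1 counts in the shCDK5RAP3 libraries and 2.17 and 2.00 in the shControl libraries.

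Of the Gq paralogs, GNAQ fell and GNA11 did not pass. GNAQ had 2558 and 2655 counts in the shCDK5RAP3 libraries and 3231 and 3223 in the shControl libraries (log2 fold change -0.31 ± 0.06 SE, edgeR adjusted p = 0.00342), a call lost without shCDK5RAP3 replicate 1 (0.0607) or 2 (0.0662). GNA11 was at 2747 and 2823 counts with shCDK5RAP3 and 2499 and 2535 with shControl (0.14 ± 0.06 SE, adjusted p = 0.0955), although these groups did not overlap either, and it passed with upper-quartile factors (0.0491). There were 1.07 and 1.06 GNA11 counts per GNAQ count with shCDK5RAP3, against 0.773 and 0.787 with shControl. GNAS, the Gs subunit that couples receptors to cyclic AMP, had 55265 and 56952 counts in the shCDK5RAP3 libraries and 52243 and 54989 in the shControl libraries (0.06 ± 0.05 SE, adjusted p = 0.344), and the olfactory and striatal form GNAL did not pass either (-0.38 ± 0.34 SE, adjusted p = 0.408). GNAS shares its locus with antisense transcripts, and GNAL with CHMP1B on the same strand.

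Beta subunits form a tight dimer with gamma subunits and are partly interchangeable. All 5 were tested. GNB4 fell, with 1431 and 1527 counts in the shCDK5RAP3 libraries and 2612 and 2302 in the shControl libraries (log2 fold change -0.74 ± 0.08 SE, edgeR adjusted p = 0.000145). GNB2 was the single member of the 51 that rose, with 7613 and 8786 counts with shCDK5RAP3 and 6397 and 6883 with shControl (0.30 ± 0.07 SE, adjusted p = 0.00938), a call lost without shCDK5RAP3 replicate 2 (0.161) and without a filter on low counts (0.109). For both genes the libraries of the groups lay apart.

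GNB1, the most abundant beta gene per length, was slightly lower, at 18888 and 19898 counts with shCDK5RAP3 and 21779 and 21457 with shControl (log2 fold change -0.16 ± 0.05 SE, edgeR adjusted p = 0.0375). That call was lost under 6 of 13 alternatives, DESeq2 among them (0.0528), and without shCDK5RAP3 replicate 1 (0.255), shCDK5RAP3 replicate 2 (0.167) or shControl replicate 1 (0.0962). GNB3 (0.55 ± 0.24 SE) and GNB5 did not pass, and GNB3 overlaps the cell-cycle gene CDCA3 on the other strand. Of all beta counts, not corrected for length, GNB4 made up 5.02% and 4.96% in the shCDK5RAP3 libraries and 8.36% and 7.40% in the shControl libraries, and GNB2 26.7% and 28.5% against 20.5% and 22.1%. GNB4 also overlaps an antisense transcript, AC007620.2, with 413 and 377 counts in the shCDK5RAP3 libraries and 616 and 592 in the shControl libraries.

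Gamma subunits anchor the dimer to the membrane through a lipid group. Of 12 genes 10 were tested, 4 fell and 6 did not pass (40.0% lower, against 21.8% of all tested genes). GNG7 (ENSG00000176533, chromosome 19, 2511219 to 2702709), known in the mouse striatum as the partner of GNAL, had 49 and 26 counts in the shCDK5RAP3 libraries and 192 and 240 in the shControl libraries. It fell to 17.4% of control (log2 fold change -2.52 ± 0.30 SE, edgeR adjusted p = 0.00023), at a low level of 1.30 ± 0.592 CPM against 7.45 ± 1.14 CPM (SD, n = 2 each). The shCDK5RAP3 libraries differed from each other, yet both lay below both controls.

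GNG4, GNG2 and GNG10 fell by less. GNG4 had 2428 and 2490 counts with shCDK5RAP3, against 4448 and 4276 with shControl (log2 fold change -0.83 ± 0.06 SE, edgeR adjusted p = 2.04e-05). GNG2 had 4682 and 5294 counts with shCDK5RAP3, against 7181 and 7141 with shControl (-0.53 ± 0.07 SE, adjusted p = 0.000286). In both, every shCDK5RAP3 library was below every control. GNG10 had 571 and 611 counts with shCDK5RAP3, against 1092 and 993 with shControl (-0.82 ± 0.10 SE, adjusted p = 0.000213). Its value is uncertain because the read-through gene DNAJC25-GNG10 shares its exons; that row had 102 and 137 counts with shCDK5RAP3 and 239 and 268 with shControl.

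Among the gamma genes that did not pass, GNG12 (0.18 ± 0.07 SE, edgeR adjusted p = 0.067) and GNG11 (0.37 ± 0.14 SE, 0.0678) came closest, both with higher values in each shCDK5RAP3 library than in each control. GNG12 passed with upper-quartile factors (0.0367), and GNG11 passed without shControl replicate 2 (0.0366). GNG5 stood at 0.07 ± 0.08 SE, and GNG3 (-0.21), GNG8 (-0.49) and GNG13 (0.63) had at most 97 counts in a library. Both GNG3 and GNG13 overlap well-expressed genes on the other strand. Summed gamma levels were 392 and 411 CPM in the shCDK5RAP3 libraries and 559 and 545 CPM in the shControl libraries, whereas alpha subunits summed to 2723 and 2697 CPM against 2758 and 2833 CPM. GNG12 made up 15.4% and 14.8% of gamma counts with shCDK5RAP3 and 9.73% and 9.63% with shControl, and GNG4 21.7% and 20.5% against 27.5% and 27.0%.

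**Figure D3:**
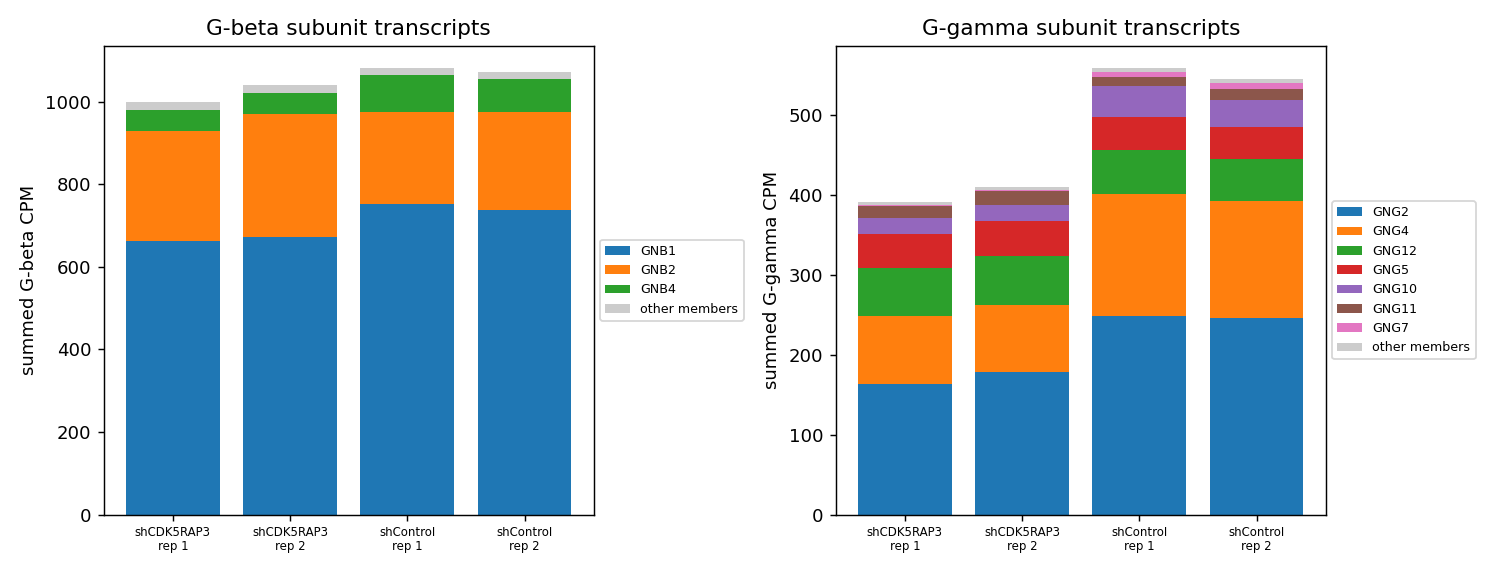
Summed CPM of G-beta (left) and G-gamma (right) genes in each library, stacked by gene from 0 and not corrected for length. The gamma bars of the shCDK5RAP3 libraries reach 392 and 411 CPM, below the 559 and 545 CPM of the shControl libraries, and the beta bars reach 999 and 1041 CPM against 1081 and 1071 CPM.

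Of the 51 genes 11 had too few counts to be tested. GNGT1, GNGT2, RGS1, RGS18, RGS21 and RGS22 had no count in these 4 libraries, where a count of 0 allows up to 3 counts, or 0.101 to 0.105 CPM, counting error only. GNA14, the blood-cell subunit GNA15, RGS6, RGS7 and RGS8 had between 0 and 9 counts in a library. No direction can be given for them at this depth.

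Receptors, effectors and other regulators of the cycle were counted in lists that do not include the members. Of 150 such genes 107 were tested, 38 fell, 19 rose and 50 did not pass (35.5% lower and 17.8% higher, against 21.8% and 19.7% of all tested genes). Without shCDK5RAP3 replicate 1 25 fell and 14 rose, and without shCDK5RAP3 replicate 2 25 fell and 8 rose. By list, 17 of 38 tested effectors fell and 5 rose, and 12 of 41 tested receptors fell and 8 rose. The median log2 fold change was -0.41 for effectors, 0.06 for receptors and -0.03 for the 28 cycle regulators.

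Among receptors, the alpha-2 adrenoceptors ADRA2A and ADRA2B rose. ADRA2A had 451 and 491 counts with shCDK5RAP3 and 87 and 69 with shControl (log2 fold change 2.59 ± 0.18 SE, edgeR adjusted p = 1.12e-05), and ADRA2B had 72 and 113 against 25 and 47 (1.35 ± 0.36 SE, adjusted p = 0.0142). The third alpha-2 gene, ADRA2C, added here after its values were seen, did not pass, with 120 and 246 counts with shCDK5RAP3 and 259 and 399 with shControl (-0.86 ± 0.31 SE, adjusted p = 0.0521). ADRA2C passed as lower under 7 of 13 alternatives, among them DESeq2 (adjusted p = 0.0175), edgeR without shCDK5RAP3 replicate 2 (log2 fold change -1.43, 0.0471) and edgeR without shControl replicate 1 (-1.13, 0.00486). The bradykinin receptor BDKRB2 rose as well (1.54). Falls were measured for the sphingosine phosphate receptor S1PR1 (-1.52), the serotonin receptor HTR2B (-1.61), the prostaglandin receptor PTGER1 (-1.65), the nociceptin receptor OPRL1 (-1.39) and the dopamine receptor DRD2 (-1.25). OPRL1 and PTGER1 had at most 58 counts in a library, and OPRL1 was not called by DESeq2 (adjusted p = 0.081). OPRL1 did not pass in edgeR on the libraries without shCDK5RAP3 replicate 1 (0.197), shCDK5RAP3 replicate 2 (0.0595) or shControl replicate 1 (0.205), nor without a filter on low counts (0.188), and its log2 fold change was -2.06 with shCDK5RAP3 replicate 2 left out. The call of PTGER1 was lost without a filter (0.082) and without shCDK5RAP3 replicate 1 (0.0869) or shControl replicate 1 (0.0646). The rise of ADRA2B was lost without shCDK5RAP3 replicate 2 (edgeR adjusted p = 0.173) and without a filter (0.142), and the fall of DRD2 without a filter (0.0644).

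Of the 38 tested effectors, 5 fell at least 2-fold, against 7.29% of all tested genes. The cyclic AMP sensor RAPGEF4 had 498 and 531 counts with shCDK5RAP3 and 1582 and 1445 with shControl (log2 fold change -1.56 ± 0.09 SE, edgeR adjusted p = 5.67e-06). Adenylyl cyclase ADCY6 had 383 and 475 against 1144 and 1211 (-1.46 ± 0.11 SE, adjusted p = 2.07e-05), and the protein kinase A catalytic subunit PRKACB 1672 and 1514 against 3461 and 3253 (-1.08 ± 0.08 SE, adjusted p = 1.97e-05). In each of these 3 genes the groups lay well apart. Phosphodiesterases PDE3A (-1.05) and PDE4C (-1.37, at most 46 counts in a library) fell too. Each of the 4 phospholipase C-beta genes, singled out after their values were seen, fell: PLCB1 by 0.28, PLCB2 by 0.66, PLCB3 by 0.54 and PLCB4 by 0.59 on the log2 scale. PLCB1 and PLCB2 did not pass without shCDK5RAP3 replicate 1 (edgeR adjusted p = 0.0869 and 0.0649) or 2 (0.137 and 0.0662), nor PLCB1 without a filter on low counts (0.0644). Of the 28 tested cycle regulators 9 fell and 6 rose (32.1% lower and 21.4% higher, against 21.8% and 19.7% of all tested genes). AXIN2, a scaffold with an RGS-like domain (-1.59), and GPSM3 (-1.49, at most 37 counts in a library) were the 2 with at least 2-fold changes. DESeq2 called neither PDE4C nor GPSM3 (adjusted p = 0.0988 and 0.117), and both lost the edgeR call without shCDK5RAP3 replicate 1 (0.0693 and 0.146), shCDK5RAP3 replicate 2 (0.144 and 0.0934) or shControl replicate 2 (0.171 and 0.209), and without a filter (0.0813 and 0.0846).

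**Figure D4:**
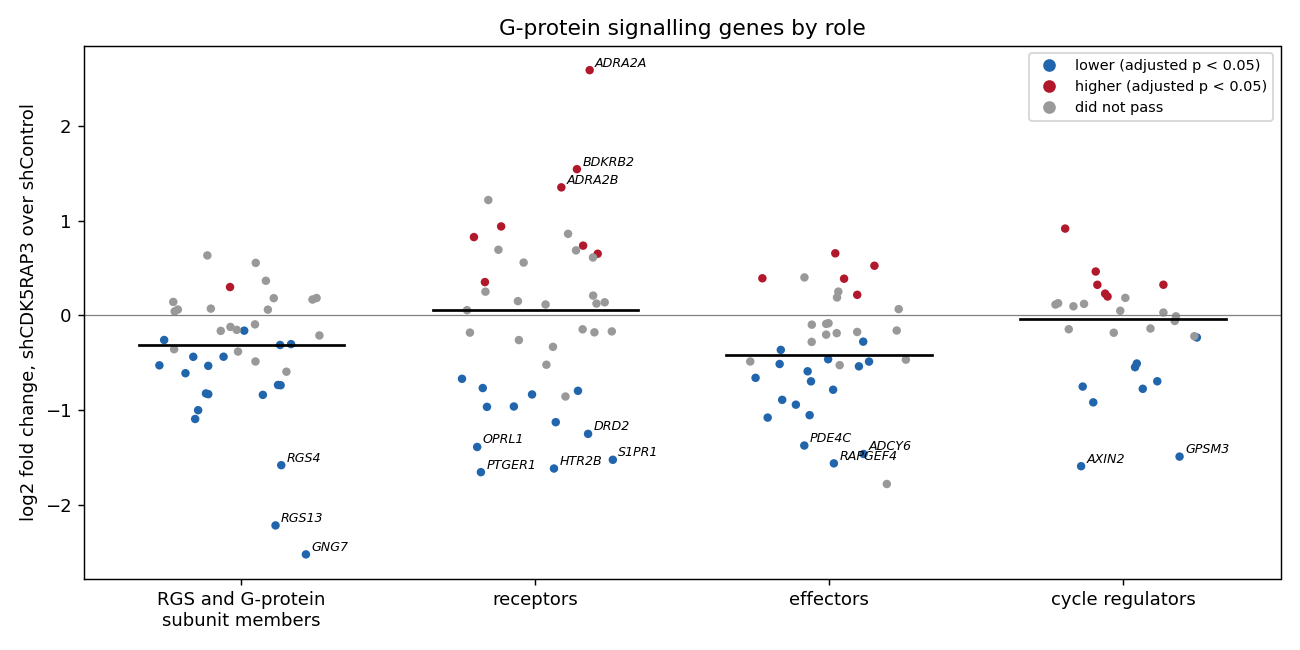
Log2 fold change (shCDK5RAP3 over shControl) of each tested member and of each tested receptor, effector and cycle regulator, coloured by edgeR call, with black lines at the medians of -0.31, 0.06, -0.41 and -0.03 and names for called genes beyond 1.2 in size. The receptor column alone reaches above 1 with called genes, led by ADRA2A at 2.59.

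The 3′ UTRs of members were searched for the 7-base words AACACCT and ACACCTA, which an earlier search of these same libraries had linked to lower transcripts, so that the counts below are a description and no independent evidence. In the longest 3′ UTR of GENCODE 29 (GRCh38), 6 of 19 members that fell hold at least 1 word. Of the 20 other tested members with a UTR 3 do, and untested members were not searched. Of all 13556 tested genes with a 3′ UTR 15.2% hold a word, of the lower ones 24.3% and of the higher ones 9.45%. The UTRs of the fallen members were also longer, with a median of 2242 bases against 1277 bases in the others. Among all tested genes with a 3′ UTR the median was 1357 bases, with 1628 in the lower and 1342 in the higher ones. The sites in the members that fell are shown with the word in capitals (8 bases where both words overlap) and 7 bases on each side.
GNA12: aatacggAACACCTAatcacac
GNA12: tgtttgaAACACCTtcctgag
GNAQ: tgaatacACACCTAgcacata
GNAQ: tgcaaaaAACACCTAatgttgt
GNB4: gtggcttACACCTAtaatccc
GNG2: cttagccACACCTAaaatacc
GNG4: tgaagcaAACACCTttgttgc
RGS4: tgccagcAACACCTgccgtaa
RGS5, GNG7, GNAO1 and GNG10, which also fell, hold neither word in the UTR searched, and GNAI1, GNAI3 and RGS17, which did not pass, hold at least 1, GNAI3 in a UTR annotated with 25999 bases. A role of these words in the falls was not tested.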

How the data were processed

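The deposited values are whole-number counts for 64252 Ensembl gene rows, which the authors did not scale. The submitters' processing notes name HISAT2 2.2.0, StringTie and hg38 without saying what each did. The labels' protocols name TRIzol for extraction and a TruSeq RNA kit for the libraries. No source used here states the annotation release, the strand setting or how multi-mapped reads were treated. Titles gave the groups and replicate numbers.

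GENCODE 29 (GRCh38) held 56591 of the rows. The other 7661, with 1.82% to 1.90% of a library's counts, were kept in library sizes and tests. Members are protein-coding rows taken by symbol. R 4.3.3 with edgeR 4.0.16 fitted all 4 libraries (TMM factors, the default filter, 18775 genes kept, quasi-likelihood test, Benjamini-Hochberg adjustment over every tested gene, threshold 0.05). The biological coefficient of variation was 0.0959. Adjusted p-values are from edgeR unless another tool is named. A standard error (SE) is the size of the log2 fold change over the square root of F. CPM rests on TMM-scaled library sizes, and levels per length on the median coding transcript of GENCODE's basic set. The fit was run on simulated counts in which only a few of the genes were changed. That run does not check the calls where as many genes change as here.

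The members and lists were chosen with earlier results of these data known. Besides the members, CDK5RAP3 and, from each pathway list, at most 8 called genes with at least 2-fold changes were named, largest first. Alternatives were other scaling factors, other filters on low counts, DESeq2 1.42.0, a robust fit, limma 3.58.1 (limma-trend), a replicate block and each library left out. Promoter motifs, as spelled and on both strands, were the E-box CACGTG, the CRE TGACGTCA and its half-site TGACG, the AP-1 site TGANTCA, the GATA site AGATAA, the TATA box TATAAA, the GC box GGGCGG and the CCAAT box.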

Additional observations from a re-analysis of the deposited data

How the results depend on the processing

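No member that passed changed sign under any of the 13 alternatives. Of the 19 members that fell, 10 (RGS3, RGS4, RGS5, GNA12, GNAO1, GNB4, GNG2, GNG4, GNG7 and GNG10) passed under each of the 13, and 9 lost the call under at least 1, in every case including the removal of an shCDK5RAP3 library, where the lone library left is assumed to vary like the controls. Leaving out each library in turn gave 12 to 19 members lower and 0 to 2 higher, 2196 to 3813 genes lower and 1556 to 3516 higher among all tested, and 25 to 37 pathway genes lower and 8 to 17 higher. The lowest counts of genes called came without shCDK5RAP3 replicate 2, and the 12 lower members came without either shCDK5RAP3 replicate. Without shCDK5RAP3 replicate 2 edgeR called 0 members higher, with 1 at an unadjusted p under 0.05 (DESeq2 on all 4 libraries called 1). Without a filter on low counts edgeR called 2522 genes lower and 1966 higher, 14 members lower (RGS9, RGS12, RGS13, RGS20 and GNB1 lost the call) and 0 higher (3 at an unadjusted p under 0.05), and 24 pathway genes lower and 12 higher. The share of all tested genes at an unadjusted p was not counted, so the unadjusted counts given here have no background either. Upper-quartile factors called 3 members higher (GNB2, GNA11 and GNG12). With the replicate number as a block, 4 members were higher (GNB2, GNA11, GNG11 and GNG12) and 19 lower, and 4430 genes were higher and 4718 lower; same-numbered libraries deviated together with a correlation of 0.0534, and the labels give no shared culture or day, so the numbers were not taken as pairs. Low counts limit GNG7, RGS13, RGS9, GNG13 and the 11 untested members.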
